A study of Mus musculus with 132 samples.

Results

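The 10 genes described here, Prkar2b, Kcnq5, Mctp1, Grk5, Nhs, Jazf1, Fer, Gab2, Spns2 and Mbnl1, are genes of intracellular signalling, membrane transport and RNA regulation among the 25146 of the count table. They were chosen by their pattern in these libraries, namely lower read counts in Flk1+ mesoderm of P2-CTCF-KO clones than of wild-type clones, so the levels in mesoderm are a description of what chose them and carry no test. The study differentiated mouse embryonic stem cells of the male line E14-TG2a (strain 129/Ola) towards blood in defined serum-free medium with BMP4, Activin-A, SCF and VEGF, and sequenced poly(A)-minus RNA, which includes nascent transcripts. Of the 23 RNA libraries, 2 were technical replicates of undifferentiated wild-type cells (day 0), 9 came from Flk1+ mesoderm (day 4) and 12 from CD41+ hematopoietic progenitor cells (HPCs, day 7), both sorted by flow cytometry. The wild-type clones were C6.1, C8.1 and B9.3, each with a mesoderm library, and wild-type HPCs were of the same clones, with B9.3 sampled as B9.3 and again as B9.3-2. P1-CTCF-KO clones carried a homozygous CRISPR/Cas9 deletion of the CTCF motif beside the distal P1 promoter of Runx1, with 3 mesoderm and 3 HPC libraries of the clones E7.1, E7.2 and E9.1. By their numbering E7.1 and E7.2 may be sub-clones of a shared parent, which the sample names do not state. P2-CTCF-KO clones lacked the motif beside the proximal P2 promoter, with 3 mesoderm libraries (D10.1, D2.1, E9.1) and 5 HPC libraries (the same clones and D10.1-2 and D2.1-2). The clone called E9.1 in one genotype is not that of the other.

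Signalling proteins of this kind pass a cue from the cell surface to the interior. G protein-coupled receptors raise cyclic AMP, which frees the catalytic subunits of protein kinase A from regulatory subunits such as the product of Prkar2b, and receptor kinases such as Grk5 phosphorylate active receptors and end their signal. Docking proteins such as Gab2 gather phosphatases and lipid kinases at cytokine and growth factor receptors, Fer is a cytoplasmic tyrosine kinase of adhesion and cytokine signalling, and Spns2 exports the lipid mediator sphingosine 1-phosphate. Kcnq5 encodes a voltage-gated potassium channel, Mctp1 a calcium-binding membrane protein of the endoplasmic reticulum, Nhs a regulator of actin remodelling, Jazf1 a zinc finger cofactor of nuclear receptors and histone acetylation, and Mbnl1 an RNA-binding regulator of alternative splicing. RUNX1, a transcription factor required for blood formation from endothelium, is transcribed from the distal promoter P1 and the proximal promoter P2, and CTCF is a DNA-binding protein that shapes chromatin domains.

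The deposited lists of open chromatin (ATAC-seq) in wild-type mesoderm and wild-type HPCs and of CTCF binding in 416B cells, a hematopoietic progenitor line, place regulatory sequence at the members independently of the counts that chose them. The sequences below are examples, most of them picked after the search because they hold motif letters, together with the promoter of the member without a peak at its start site. They are read from mm9 in the direction of the gene, 5′ to 3′, and capitals mark exact matches on either strand to the letters of 4 motifs. For RUNX factors the letters searched were TGTGGT. Those of GATA factors, which act beside RUNX factors in blood cells, were AGATAA. The ETS family, which includes endothelial and blood regulators, was searched as AGGAAG. CTCF, which binds a longer motif, was searched by its core AGGGGGCGC. A match is a description of letters and not a binding site. The peaks of Spns2, in chr11:72289084-72289163, chr11:72295528-72295727 and chr11:72298200-72298293 on the minus strand, and that of Fer, in chr17:64238831-64239004 on the plus strand, were in the HPC list and overlapped no peak of the mesoderm list. The Fer peak and the Spns2 peaks that begin at 72295528 and 72298200 are intronic, and the other Spns2 peak lies at an annotated start site inside the gene. They are 4 of 29 such peaks in the members, and some of the others hold none of these letters, including 3 of the 7 in Fer.
Spns2 chr11:72289084-72289163: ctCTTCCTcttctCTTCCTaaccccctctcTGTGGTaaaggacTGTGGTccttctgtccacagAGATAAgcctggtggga
Spns2 chr11:72295528-72295727: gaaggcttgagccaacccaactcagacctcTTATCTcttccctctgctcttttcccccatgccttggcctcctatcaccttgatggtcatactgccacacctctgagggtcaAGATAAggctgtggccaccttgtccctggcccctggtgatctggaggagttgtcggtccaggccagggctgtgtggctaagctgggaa
Spns2 chr11:72298200-72298293: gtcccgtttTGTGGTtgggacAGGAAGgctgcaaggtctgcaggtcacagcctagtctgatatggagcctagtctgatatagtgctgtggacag
Fer chr17:64238831-64239004: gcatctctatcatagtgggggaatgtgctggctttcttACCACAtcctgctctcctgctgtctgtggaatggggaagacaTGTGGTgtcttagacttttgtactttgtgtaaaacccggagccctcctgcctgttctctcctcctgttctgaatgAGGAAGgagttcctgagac

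The next 3 were in both lists. Those of Mctp1 (plus strand) and Gab2 (plus strand) are intronic and combine GATA and ETS letters, and the peak of Grk5 (plus strand) spans its start site, overlaps a CTCF peak of 416B cells and holds the CTCF letters.
Mctp1 chr13:76546893-76547039: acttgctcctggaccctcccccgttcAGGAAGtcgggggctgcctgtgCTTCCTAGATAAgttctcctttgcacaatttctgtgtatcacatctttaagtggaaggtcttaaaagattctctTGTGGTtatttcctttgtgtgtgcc
Gab2 chr7:104418971-104419100: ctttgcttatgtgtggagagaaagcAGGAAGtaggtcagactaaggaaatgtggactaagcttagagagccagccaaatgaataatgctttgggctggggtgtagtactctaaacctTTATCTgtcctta
Grk5 chr19:60965580-60965718: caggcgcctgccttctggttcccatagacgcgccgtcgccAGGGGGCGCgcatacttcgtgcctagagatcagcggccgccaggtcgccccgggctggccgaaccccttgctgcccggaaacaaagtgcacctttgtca

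The last pair are an intronic peak of Prkar2b (minus strand) from the mesoderm list, which overlapped no HPC peak and holds 2 RUNX matches, and the promoter of Jazf1 (minus strand), whose window of 250 bases before to 50 bases after the start had no ATAC-seq peak in either list and holds the CTCF letters.
Prkar2b chr12:32702974-32703129: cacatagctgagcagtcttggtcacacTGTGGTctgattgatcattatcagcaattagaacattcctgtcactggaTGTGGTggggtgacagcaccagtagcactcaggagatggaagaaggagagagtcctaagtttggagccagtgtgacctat
Jazf1 chr6:53018569-53018868: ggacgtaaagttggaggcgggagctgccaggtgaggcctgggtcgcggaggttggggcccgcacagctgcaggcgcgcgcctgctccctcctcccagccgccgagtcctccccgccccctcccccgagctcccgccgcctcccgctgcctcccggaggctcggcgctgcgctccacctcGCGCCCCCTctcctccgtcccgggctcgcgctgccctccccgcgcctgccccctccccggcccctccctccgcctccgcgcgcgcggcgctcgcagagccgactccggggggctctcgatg

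Total counts were 18233679 to 24406998 in mesoderm, 7805102 to 13513677 in HPCs and 20532578 and 24283287 in undifferentiated cells, of which ribosomal RNA and entries listed at several loci or over long spans took 88.8 to 91.0%, 87.8 to 89.2% and 68.1 to 76.3%. Levels are given as CPM, counts scaled to a common library size after TMM normalization over the 23 libraries. A single count was worth 0.0412 to 0.121 CPM in mesoderm, most in wild-type C6.1, and 0.0698 to 0.203 CPM in HPCs, most in P1-CTCF-KO E7.1. Kdr, which encodes the sorted receptor Flk1, was at 16.9 to 37.9 CPM in wild-type, 25.6 to 39.1 in P1-CTCF-KO and 24.2 to 29.8 in P2-CTCF-KO mesoderm, and Itga2b, which encodes CD41, was at 10.04 to 79.2 CPM in HPCs. The counts are given per gene and so could not check the deletions. Runx1 itself was at 4.01 to 15.5 CPM in wild-type, 3.55 to 11.3 in P1-CTCF-KO and 2.00 to 7.60 in P2-CTCF-KO mesoderm. The HPC library D2.1 of P2-CTCF-KO stood apart, with 28.7 CPM summed over 10 erythroid and megakaryocyte markers against 125 to 167 in the other 4 libraries of its group, and 3.56 CPM over 10 primitive streak markers against at most 0.194. The main results that rest on it are given with and without it.

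All 10 members were lower in P2-CTCF-KO than in wild-type mesoderm, with log2 fold changes from -7.18 to -1.04 and a median of -2.27, whereas the median over all 8778 genes tested in mesoderm was 0.01. All 10 passed the filter on low counts. In each of them every P2-CTCF-KO library lay below every wild-type library and below every P1-CTCF-KO library. Of all genes tested, 11.2% and 10.5% did so. Since these counts chose the members, nothing is read from the difference. At an adjusted p under 0.05 (edgeR quasi-likelihood, Benjamini-Hochberg over all genes tested) and a more than 2-fold change, 1 of 10 members was called, Prkar2b, beside a background of 0.0342% of genes, or 3 genes in all. The other 2 were the transcriptional regulators Cbfa2t3 and Ikzf2. In bulk RNA, fewer cells of a type and less RNA per cell cannot be told apart.

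Prkar2b, the regulatory subunit of protein kinase A (chr12:32643335-32746142, minus strand), was at 5.40, 3.04 and 5.77 CPM in wild type (B9.3, C6.1, C8.1), at 4.49, 3.95 and 4.66 in the P1-CTCF-KO clones E7.1, E7.2 and E9.1, and at 0.758, 0.750 and 1.33 in the P2-CTCF-KO clones D10.1, D2.1 and E9.1. The 3 P1-CTCF-KO libraries lay within the wild-type range and all 3 P2-CTCF-KO libraries lay below the lowest of the other 6. The log2 fold change was -2.30 ± 0.31 (SE) for P2-CTCF-KO and -0.14 ± 0.26 for P1-CTCF-KO, each against wild type (n = 3 per genotype here and for the other mesoderm values). Grk5, the receptor kinase (chr19:60965651-61168458, plus strand), was at 3.89, 3.04 and 5.17 CPM in wild type, 3.27, 1.73 and 2.69 in P1-CTCF-KO and 1.03, 1.22 and 1.19 in P2-CTCF-KO, in the same clone order. All 3 P2-CTCF-KO libraries again lay below the other 6, and the log2 fold change was -1.80 ± 0.30. Kcnq5, the potassium channel gene (chr1:21388479-21952731, minus strand), was the most abundant member in mesoderm by CPM, at 31.9, 18.1 and 24.5 in wild type, 24.6, 19.1 and 15.9 in P1-CTCF-KO and 7.23, 7.22 and 9.40 in P2-CTCF-KO. The log2 fold change was -1.62 ± 0.24 for P2-CTCF-KO.

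The docking protein gene Gab2 (chr7:104230260-104457461, plus strand) varied widely among wild-type clones, with 17.4 CPM in B9.3 against 3.04 in C6.1 and 4.87 in C8.1. P1-CTCF-KO clones, at 4.38, 2.18 and 6.76 CPM, spanned the lower wild-type pair, and P2-CTCF-KO clones were at 0.413, 0.563 and 0.814. Its log2 fold change of -3.81 ± 0.73 became -2.72 without B9.3. The kinase gene Fer (chr17:64213329-64488846, plus strand) changed least, from 8.37, 6.19 and 7.27 CPM in wild type through 5.08, 4.77 and 4.27 in P1-CTCF-KO to 3.38, 3.47 and 3.63 in P2-CTCF-KO. All 3 genotypes were separate for Fer, and its P2-CTCF-KO fold change was -1.04 ± 0.18 and that of P1-CTCF-KO -0.63 ± 0.17 on the log2 scale. Spns2 (chr11:72265139-72303422, minus strand) had no read in any P2-CTCF-KO mesoderm library, against 2.62, 0.121 and 0.541 CPM in wild type and 0.817, 0.329 and 1.71 in P1-CTCF-KO. Against the floor of 3 counts over the group, wild-type mesoderm was at least 16.9-fold higher, from 55 counts, and at least 5.19-fold higher without B9.3, from 10 counts. The fitted value of -7.18 depends on the prior count and is no bound, and with Spns2 at its bound and Mctp1 at its count ratio the median over the members stayed at -2.27. The span of Spns2 overlaps the entry of Mybbp1a, which held 8232 counts over the 23 libraries against 1638 for Spns2, and the strand setting of the counting is not given in the sources used here.

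Mctp1, the calcium-binding membrane protein (chr13:76521586-77172543, plus strand), was near absent from P2-CTCF-KO mesoderm, with 0, 0 and 0.148 CPM against 1.86, 0.971 and 1.62 in wild type and 0.525, 0.782 and 1.12 in P1-CTCF-KO. From 67 wild-type and 2 P2-CTCF-KO counts the ratio was 30.8-fold, with an exact 95% interval of 8.20 to 259.5 that covers counting error only. Mbnl1, the splicing regulator (chr3:60276751-60433672, plus strand), was at 8.77, 2.19 and 3.19 CPM in wild type, 4.03, 1.73 and 4.86 in P1-CTCF-KO and 0.482, 0.563 and 0.592 in P2-CTCF-KO. As for Gab2 and Spns2, clone B9.3 was far above the other wild-type clones, and the fold change of -3.11 ± 0.61 became -2.30 without it. Jazf1 (chr6:52718061-53018618, minus strand) was at 2.03, 2.67 and 4.27 CPM in wild type, 2.45, 1.69 and 1.44 in P1-CTCF-KO and 0.827, 0.563 and 0.444 in P2-CTCF-KO, a log2 fold change of -2.24 ± 0.38. Nhs (chrX:158274361-158597373, minus strand) was at 9.99, 5.10 and 6.43 CPM in wild type, 4.55, 3.87 and 5.25 in P1-CTCF-KO and 2.55, 2.44 and 1.78 in P2-CTCF-KO, a change of -1.66 ± 0.28. None of the members lies on chromosome 16, which holds Runx1.

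**Figure D1:**
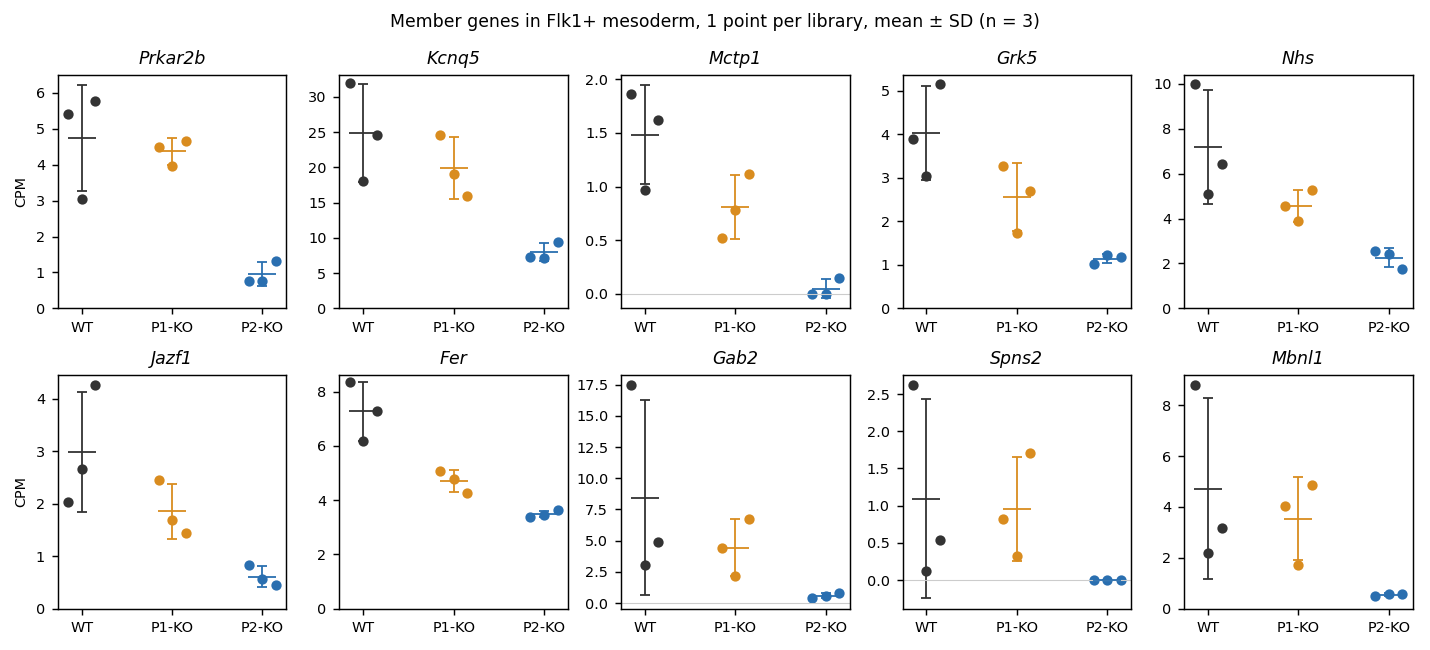
CPM of each member in the 9 Flk1+ mesoderm libraries, 1 point per library, by genotype on the x axis and on a linear y axis that differs between panels, with the mean and SD (n = 3). In all 10 panels the 3 P2-CTCF-KO points lie below every other point, and the wild-type spread is widest for Gab2, Spns2 and Mbnl1, where B9.3 is the highest point.

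The wild-type clones kept much the same order from gene to gene. C6.1 was the lowest of the 3 for 9 of 10 members, where 37.3% of all genes tested were lowest in it, and B9.3 was the highest for 7, where 36.2% of genes were, with C8.1 highest for the other 3. C6.1 was also the library with the fewest counts over the members (366 against 1588 in B9.3 and 1059 in C8.1) and the smallest TMM factor in mesoderm, 0.381. Without TMM, 8 of 10 members still had every P2-CTCF-KO library below every wild-type library when scaled by total counts (1.36% of all genes did), Kcnq5 and Fer being the exceptions, and 10 of 10 did when scaled by the counts outside ribosomal and multi-locus entries (2.40% of genes). Both scalings were chosen after the data were seen. They moved the median member change to -2.504 and -2.46, while the median over all genes moved to -0.18 and -0.14.

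How many genes pass the threshold in P2-CTCF-KO mesoderm depended on the fit far more than the size of the changes did. DESeq2 called 164 of 8778 genes, 138 lower and 26 higher, with all 10 members among them. Without a filter on low counts edgeR called 51 of 15971 genes and 9 members. Without TMM it called 284 of 8778 genes (261 lower, 23 higher) by total counts. By counts outside ribosomal and multi-locus entries it called 187 of 8784 (170 lower, 17 higher), with 9 members in each scaling. Leaving out wild-type C6.1 gave 127 calls among 9288 genes and 9 members, and leaving out B9.3 gave 7 among 9150 and 2 members. Leaving out C8.1 or any P2-CTCF-KO library gave none, with 1095 to 1424 genes at an unadjusted p under 0.05. All 10 members were below wild type in each of these fits. This comparison chose the members, so the numbers of members called are a description of the fits and no support.

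Against wild-type mesoderm, P1-CTCF-KO clones also gave negative log2 fold changes for all 10 members, from -0.97 to -0.14 with a median of -0.65. The background was 0% of genes called by edgeR and 0 by DESeq2, with 166 and 73 genes at an unadjusted p under 0.05, and no member was called. This comparison shares the wild-type libraries that took part in the choice of the members, so it is not an independent observation. Without B9.3 the median was -0.23, and Gab2, Spns2 and Mbnl1 turned to 0.12, 1.26 and 0.35. By total counts without TMM the median was -0.35 beside 0.36 over all genes, and Prkar2b turned to 0.12. Set against P1-CTCF-KO instead of wild type, P2-CTCF-KO mesoderm gave a median member change of -1.86, from -6.81 to -0.41.

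**Figure D2:**
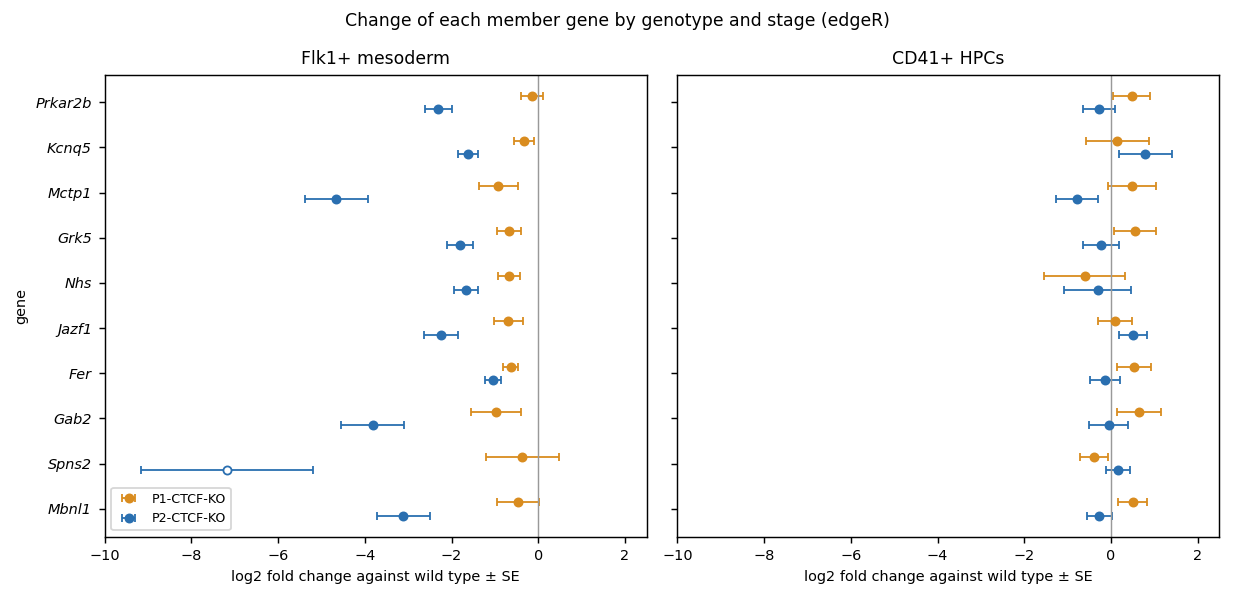
Log2 fold change against wild type with its SE (x axis, linear) for each member (y axis) in Flk1+ mesoderm (left) and CD41+ HPCs (right), from edgeR, with P1-CTCF-KO in orange and P2-CTCF-KO in blue. The hollow point of Spns2 is a fitted value without a read in P2-CTCF-KO mesoderm and is no bound. P2-CTCF-KO points span -7.18 to -1.04 in the mesoderm panel and -0.79 to 0.79 in the HPC panel.

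Sums of primitive streak and hemato-endothelial markers moved with the members across the mesoderm libraries. Summed over 10 primitive streak genes, such as T and Eomes, which mark the earliest mesoderm, CPM were 3.02 to 23.3 in wild type, 5.71 to 20.9 in P1-CTCF-KO and 49.2 to 85.6 in P2-CTCF-KO. Over 20 hemato-endothelial genes, such as Tal1 and Cdh5, they were 63.6 to 242.9, 63.4 to 181.9 and 35.2 to 49.4, with 4 or 5 of the 20 at 0 in P2-CTCF-KO against at most 2 elsewhere. Pluripotency markers, 8 genes, summed to 1.44 to 2.19, 1.69 to 5.02 and 4.67 to 8.96 CPM, and cardiac markers, 7 genes, to 5.06 to 10.04, 7.81 to 12.8 and 13.9 to 17.6. The groups of P2-CTCF-KO and wild type did not overlap in any of these 4 sums. Such separation was not rare: of 8778 single genes, 980 lay below wild type in every P2-CTCF-KO library and 724 above it. Erythroid and megakaryocyte, leukocyte, endoderm and paraxial markers each summed to at most 1.77 CPM in every mesoderm library, and all 6 leukocyte markers were at 0 in P2-CTCF-KO. Within wild type the same clones were at the extremes of 2 of these sums: B9.3 had the lowest streak and highest hemato-endothelial sum, 3.02 and 242.9, and C6.1 the opposite, 23.3 and 63.6. The other sums did not follow this order, with C8.1 lowest for pluripotency (1.44) and highest for cardiac markers (10.04). Runx1, a gene of the hemato-endothelial list, was lowest in B9.3, at 4.01 CPM against 12.6 in C6.1 and 15.5 in C8.1. No marker gene passed the threshold in edgeR, where 3 genes did in all. The study's own DESeq2 test of this comparison, at an adjusted p under 0.05, reported T and Eomes as higher in P2-CTCF-KO mesoderm. It reported Pecam1, Erg, Flt1 and Esam as lower. The part of cell state in the lower levels of the members was not tested.

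**Figure D3:**
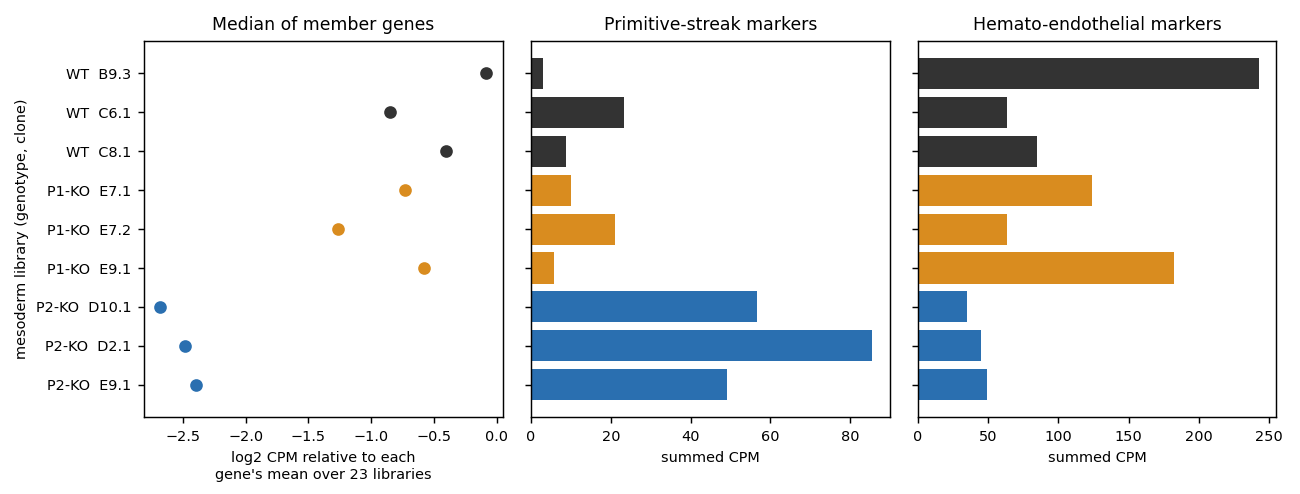
The 9 mesoderm libraries (y axis) with the median over the members of log2 CPM relative to each gene's mean over 23 libraries (left), and the summed CPM of 10 primitive streak (middle) and 20 hemato-endothelial genes (right), as bars from 0. The 3 P2-CTCF-KO libraries have the lowest member medians, from -2.68 to -2.40, the highest streak sums and the lowest hemato-endothelial sums.

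Over the wild-type stages the members followed different courses. Between mesoderm and HPCs, 5 of 10 were called higher, beside 10.8% of 12899 genes, and 1 lower, beside 12.5%. The wild-type mesoderm libraries took part in the choice, so these counts are a description. Prkar2b rose from 4.74 ± 1.48 CPM (SD, n = 3) to 73.7 ± 23.2 (n = 4), Mbnl1 from 4.72 ± 3.55 to 85.0 ± 26.8, and Mctp1 from 1.49 ± 0.460 to 54.9 ± 34.1, the steepest course, with a log2 change of 5.16 ± 0.51. Fer and Spns2 were the other members called higher, by 1.74 ± 0.22 and 3.45 ± 0.57 on the log2 scale. Kcnq5 went the opposite way, from 24.8 ± 6.91 to 3.15 ± 1.22 CPM, a log2 change of -2.97 ± 0.31. Grk5, Gab2, Nhs and Jazf1 were not called, at 0.99 ± 0.39, 0.95 ± 0.55, -0.47 ± 0.61 and -0.02 ± 0.30. Leaving out a library added a call in 3 cases: Gab2 higher without mesoderm B9.3, Nhs lower without HPC B9.3 and Grk5 higher without HPC B9.3-2. The median over the members was 1.37 beside -0.01 over all genes, and 1.95 without the mesoderm library B9.3.

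The step from undifferentiated cells to mesoderm could not be read in the same way. After TMM all 10 members were higher in mesoderm, with 7 called beside 10.8% of genes and a median of 2.40. Only 5 were called higher without the first technical replicate, beside 548 of 12742 genes, and 4 without the other, beside 509 of 13351. By total counts without TMM Mbnl1, Jazf1 and Fer were called lower, beside 11746 of 12899 genes. Gab2 and Spns2 were called higher in that fit, beside 166 genes. Without TMM the median was -0.67 by total counts and 0.77 by counts outside ribosomal and multi-locus entries, beside -3.29 and -1.82 over all genes. Relative to the other genes the members were thus higher in mesoderm under each scaling, while the direction of the median on its own scale was not fixed. The wild-type mesoderm libraries took part in the choice of the members, which favours high values there, so this is a description. The protocol names a depletion of ribosomal RNA for undifferentiated cells and not for the sorted stages. The undifferentiated libraries are labelled technical replicates of E14 and are not of the clones C6.1, C8.1 and B9.3. Stage, clone and library preparation cannot be told apart. In those libraries Fer was at 4.29 and 4.44 CPM, Mbnl1 at 2.41 and 2.98, Kcnq5 at 1.89 and 2.69, and Gab2, Mctp1 and Spns2 at 0.0437 to 0.267.

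**Figure D4:**
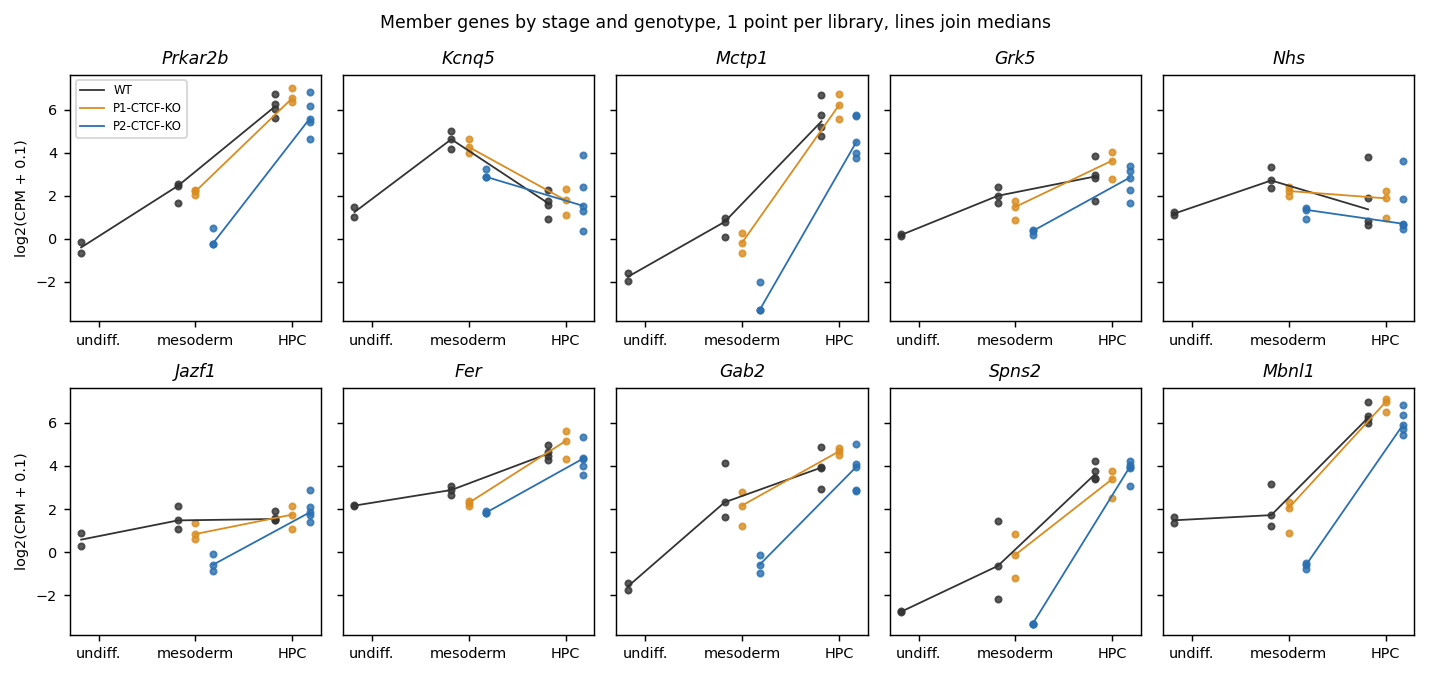
Log2(CPM + 0.1) of each member (y axis, shared) in undifferentiated cells, Flk1+ mesoderm and CD41+ HPCs (x axis), 1 point per library, with lines joining the medians of wild type (black), P1-CTCF-KO (orange) and P2-CTCF-KO (blue). In every panel the blue mesoderm points lie below the other mesoderm points, and in HPCs the genotypes overlap.

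Per length of gene, counted here over exons and introns, wild-type mesoderm placed Prkar2b first at 4.61 ± 1.44 CPM per 100 kb (SD, n = 3) and Kcnq5 next at 4.40 ± 1.23. Gab2 (3.72 ± 3.45), Mbnl1 (3.01 ± 2.26), Spns2 (2.85 ± 3.49), Fer (2.64 ± 0.395), Nhs (2.22 ± 0.784) and Grk5 (1.99 ± 0.530) followed. Neighbours in this order overlapped in their libraries. Below them Jazf1 (0.995 ± 0.383) and Mctp1 (0.228 ± 0.0707) overlapped neither each other nor Grk5. In wild-type HPCs the order was Prkar2b (71.7 ± 22.6, n = 4), Mbnl1 (54.1 ± 17.1) and Spns2 (34.8 ± 10.2), then, with a gap in which no library overlapped, Fer (8.89 ± 1.75), Mctp1 (8.44 ± 5.23), Gab2 (7.33 ± 3.94), Grk5 (3.96 ± 2.23), Nhs (1.59 ± 1.80) and Jazf1 (0.987 ± 0.147). Kcnq5 (0.558 ± 0.215) had the lowest mean and lay below every library of Jazf1. The place of Nhs rested on B9.3, at 4.25 CPM per 100 kb, while its other 3 libraries, at 0.458 to 1.14, overlapped those of Kcnq5 and Jazf1.

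In HPCs no member differed between genotypes by the test. These libraries did not enter the mesoderm comparison, but the members were picked with them in view. For P2-CTCF-KO against wild type the 10 log2 fold changes ran from -0.79 to 0.79 with a median of -0.19, 7 below and 3 above 0, and every adjusted p was 1 (edgeR, 7422 genes tested). Over the alternative fits the adjusted p of the members ranged from 0.55 to 1. The background was 0% of genes called, with 145 at an unadjusted p under 0.05, and DESeq2 called 0 with 112. A p of this size does not show equal levels: the 95% intervals of the log2 fold change ran from the narrowest, -0.45 to 0.75 for Spns2, to the widest, -1.99 to 1.37 for Nhs. Without the library D2.1 the fold changes ran from -1.44 (Nhs) to 0.29 (Spns2) with a median of -0.14, 8 below and 2 above 0, and Jazf1 moved from 0.51 to 0.16. Set against P1-CTCF-KO HPCs, P2-CTCF-KO HPCs had a median member change of -0.68 beside 0.05 over all genes, 6 below and 4 above 0. The 95% intervals excluded 0 for Mctp1 (-2.40 to -0.15) and Mbnl1 (-1.445 to -0.099) only. Adjusted p-values of the members were 0.53 to 0.9 (edgeR), with 0 genes called and 650 at an unadjusted p under 0.05.

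The values by library show how far each clone came back. Spns2, unread in P2-CTCF-KO mesoderm, was at 14.8, 18.7, 8.30, 15.3 and 16.3 CPM in the P2-CTCF-KO HPC libraries D10.1, D10.1-2, D2.1, D2.1-2 and E9.1, against 10.7, 18.7, 13.7 and 10.3 in wild type (B9.3, B9.3-2, C6.1, C8.1) and 5.68, 10.4 and 13.6 in P1-CTCF-KO E7.1, E7.2 and E9.1. The genotypes overlapped throughout. In the same order of libraries, Mctp1 was at 54.0, 52.7, 13.3, 15.9 and 22.5 CPM in P2-CTCF-KO, at 35.9, 27.1, 53.4 and 103.3 in wild type and at 105.8, 73.6 and 46.7 in P1-CTCF-KO. The lower P2-CTCF-KO values were those of D2.1, D2.1-2 and E9.1, all under the lowest wild-type library, and the fold change was -0.79 ± 0.49.

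Prkar2b showed a like split in P2-CTCF-KO HPCs, with 113.9 and 72.2 CPM in the libraries of D10.1, 25.0 and 47.8 in those of D2.1 and 43.4 in E9.1, against 75.4, 49.3, 65.7 and 104.6 in wild type and 126.7, 81.9 and 92.6 in P1-CTCF-KO. Mbnl1 was at 112.7 and 81.6 CPM in the libraries of D10.1, at 42.8 and 52.0 in those of D2.1 and at 60.1 in E9.1, and wild type at 79.1, 64.6, 72.0 and 124.1. For both genes the D2.1 and E9.1 libraries lay below every wild-type library, and the D10.1 libraries lay within the wild-type range except for Prkar2b in D10.1, which was above it. The 5 libraries are of 3 clones, so libraries of a clone share its genome.

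Kcnq5 and Nhs were set by single libraries in HPCs. Kcnq5 was at 14.7 CPM in P2-CTCF-KO D2.1, the library that stood apart in its markers, against 2.32 in D2.1-2 and 1.20 to 5.13 in the other 3, and its fold change of 0.79 ± 0.62 became -0.15 without D2.1. Nhs was at 12.1 CPM in D2.1 and 1.26 to 3.46 in the other P2-CTCF-KO libraries, and at 13.7 in wild-type B9.3 and 1.48 to 3.67 in the other wild-type libraries. Its fold change of -0.31 ± 0.78 turned to 0.85 without B9.3 and to -1.44 without D2.1, and with both left out, an alternative chosen after the data were seen, it was -0.27. With both left out the median over the members was -0.15. Jazf1 was also highest in D2.1, at 7.26 CPM against 2.499 to 4.13 in the rest of its group and 2.66 to 3.61 in wild type. Fer (11.8 to 41.1 against 19.6 to 30.8), Gab2 (7.07 to 32.4 against 7.42 to 28.9) and Grk5 (3.06 to 10.3 against 3.33 to 14.2) had wide and overlapping ranges in P2-CTCF-KO and wild type.

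For P1-CTCF-KO HPCs, 8 of 10 members were above and 2 below wild type, with a median log2 change of 0.48 and adjusted p-values of 0.91 to 0.99, beside 0% of genes called (260 at an unadjusted p under 0.05, and 0 called by DESeq2 with 198). The direction depended on the scaling. By total counts without TMM 9 of 10 were below wild type, where the median over all genes was also lower, at -0.52 against -0.01 after TMM. Across all alternative fits the members' adjusted p lay between 0.32 and 1.

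From mesoderm to HPCs of P2-CTCF-KO, 8 of 10 members were called higher, beside 16.5% of 9170 genes, and none lower, beside 11.7%. The median log2 change was 3.70, against 1.37 in the wild-type fit. The mesoderm libraries of both genotypes chose the members, as low in P2-CTCF-KO and higher in wild type. A larger rise in P2-CTCF-KO is thus partly given by the choice, and these counts and medians are a description. In P1-CTCF-KO 7 were called higher, beside 16.6%, and Kcnq5 lower, beside 16.1%, with a median of 2.69. Grk5 (2.54 ± 0.47) and Gab2 (4.68 ± 0.73) were called higher in P2-CTCF-KO and also in P1-CTCF-KO (2.18 ± 0.46 and 2.52 ± 0.63), though not in wild type. Jazf1 was called in P2-CTCF-KO (2.71 ± 0.40) and not in P1-CTCF-KO (0.73 ± 0.39), and Kcnq5, which fell in wild type, was at -0.59 ± 0.51. Without the HPC library D2.1, Kcnq5 was called lower in P2-CTCF-KO as well. The P2-CTCF-KO change in HPCs minus that in mesoderm, which includes the comparison that chose the members, was above 0 for all 10, from 0.91 to 7.02 with a median of 2.58 beside 0.09 over all genes. No member was called for that difference in edgeR, where 2 genes were, whereas DESeq2 called 37 genes, with Mbnl1, Jazf1, Gab2 and Spns2 among them.

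The genes outside the members whose profile over the 23 libraries was nearest to the median member profile were Ikzf2, Adam10, Trappc9, Pros1 and Rin3, with root mean square differences of 0.357, 0.417, 0.478, 0.514 and 0.524 in mean-centred log2 CPM. Ikzf2 is a transcription factor of the Ikaros family, Adam10 a membrane protease, Pros1 the anticoagulant protein S and Rin3 an exchange factor of Rab5 proteins. The median over 6839 candidate genes was 1.68. Among the members themselves Fer (0.551), Grk5 (0.592) and Gab2 (0.781) were nearest to that median profile, and Mctp1 (1.92) and Kcnq5 (2.42) the farthest.

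Other genes of these pathways were taken from lists of 127 related genes, such as other subunits of protein kinase A, G protein receptor kinases, KCNQ channels, GAB partners and the sphingosine 1-phosphate system. In P2-CTCF-KO against wild-type mesoderm 0 of 91 tested were called by edgeR, beside 0.0342% of all genes, with a median log2 fold change of -0.20, and in HPCs 0 of 83, with a median of -0.08. The medians by list in mesoderm were -0.62 for FER and FES kinases with adhesion partners (6 tested), -0.52 for MBNL and other splicing regulators (9), -0.40 for GAB docking, SHP2 and PI3K (12), and -0.30 each for cyclic AMP and protein kinase A (18) and for calcium signalling at the endoplasmic reticulum (11). They were -0.12 for actin regulation around NHS (12 tested), 0.00 for the NuA4 acetyltransferase and TR4 (11), 0.08 for receptor kinases, arrestins and RGS proteins (6), 0.15 for sphingosine 1-phosphate (5) and 0.80 for the only KCNQ gene tested. DESeq2 called 3 of the 91 lower, beside 138 of 8778 genes. They were Itpr2, a calcium release channel, Nhsl2, a relative of Nhs, and Abi3, a partner of the actin-regulating WAVE complex. These 3 were also called in edgeR without TMM, where the phosphodiesterase gene Pde3a and the regulator of G protein signalling Rgs3 joined them under both scalings. By total counts the phosphodiesterase gene Pde4b was called as well. Of all genes, 261 of 8778 were called lower by total counts and 170 of 8784 by counts outside ribosomal and multi-locus entries. Without wild-type C6.1 edgeR called Itpr2, Nhsl2 and Mbnl2, a relative of Mbnl1, lower, beside 97 of 9288 genes.

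The members are long genes. Their spans had a median of 251 kb (38.3 kb for Spns2 to 651 kb for Mctp1), against 32.6 kb over the genes tested in mesoderm. Spns2 was the only member near the length of a typical gene.

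Open chromatin at the members' start sites was as common as at other genes. An ATAC-seq peak of wild-type mesoderm lay within 1 kb of an annotated start of 9 members, all but Jazf1, where 93.4% of 7711 genes tested had one, and an HPC peak near those of 8, all but Jazf1 and Gab2, where 71.6% had one. The peaks were called on merged libraries, so they have no replicate spread. CTCF peaks of 416B cells lay within 1 kb of a start of Kcnq5, Grk5 and Spns2, 3 of 10 beside 26.1%, and within 5 kb of 5 beside 52.7%. The promoter windows, 250 bases before to 50 after the start, held RUNX letters in 0 of 10 (10.5% of 7710 promoters did), GATA letters in 0 (5.50%), ETS letters in 1, that of Kcnq5 (31.8%), and CTCF letters in 2, those of Grk5 and Jazf1 printed above (2.66%). Their median GC content was 67.8%, against 62.7%.

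Within the gene bodies the lists of both stages differed. The members' spans, 2842 kb in all, held 98 mesoderm peaks (3.45 per 100 kb, against 4.196 over all genes tested), 53 HPC peaks (1.87 against 1.77) and 44 CTCF peaks (1.55 against 2.29). Of the 53 HPC peaks, 29 overlapped no mesoderm peak, or 54.7%, against 27.8% of 9572 HPC peaks in the spans of all genes tested. They lay in 9 members: 7 in Fer, 4 each in Mctp1 and Grk5, 3 each in Kcnq5, Spns2 and Mbnl1, 2 each in Prkar2b and Gab2 and 1 in Nhs. The shares of 54.7% and 27.8% were not matched for gene length, with medians of 251 kb and 32.6 kb, or for peaks at start sites. Jazf1, the member without an HPC peak, had 7 mesoderm peaks and 13 CTCF peaks, and its log2 change between the wild-type stages was the -0.02 ± 0.30 given above. Spns2 was the most densely covered, with 13.1 mesoderm and 10.5 HPC peaks per 100 kb. Of the 56 HPC peaks in or within 1 kb of the members, 21.4% held RUNX letters (14.3% of all 29037 HPC peaks), 21.4% GATA letters (7.68%) and 39.3% ETS letters (30.7%). Of the 103 mesoderm peaks 15.5% held RUNX letters (10.4% of 76766), 15.5% GATA letters (11.97%) and 23.3% ETS letters (22.5%). These shares are descriptions, with a median peak width of 125 bases at the members and 113 in the whole HPC list. The whole lists include peaks at start sites, and the shares were not matched for place in the gene. GATA letters were in 5.50% of all promoter windows.

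**Figure D5:**
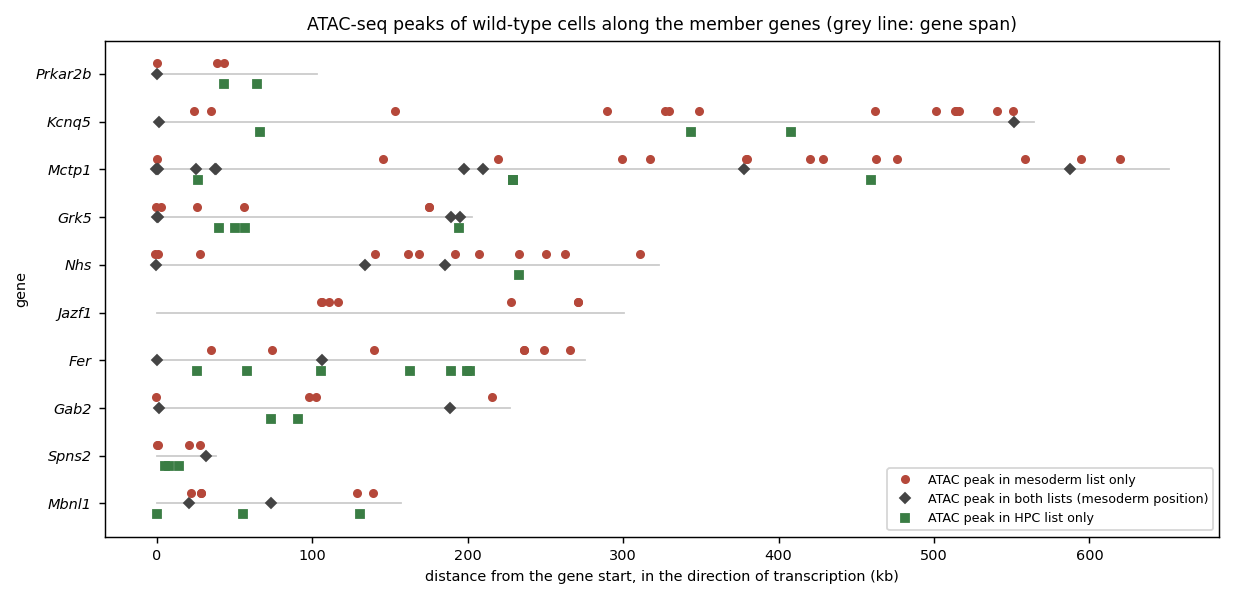
ATAC-seq peaks of wild-type cells along each member (y axis) by distance from the gene start in the direction of transcription (x axis, kb), as peaks of the mesoderm list only (red circles), of both lists (grey diamonds) and of the HPC list only (green squares), with the gene span as a grey line. Spns2, Fer and Grk5 show 3, 7 and 4 HPC-only peaks, and Jazf1 none.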

How the data were processed

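Poly(A)-minus RNA was sequenced in 23 libraries. The authors aligned reads to mm9 with STAR, removed duplicates and counted reads over exons and introns with featureCounts, and the deposited counts are raw. The annotation and the strand setting are not given in the sources used here. The deposited peak positions (MACS2, per the study's methods) were called by the authors on merged libraries of wild-type cells and of 416B cells and carry no height or count. The label gives E14-TG2a for the ATAC-seq samples, whereas the methods name a derivative of that line carrying a reporter.

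Counts were tested with edgeR 4.0.16 in R 4.3.3 (quasi-likelihood, TMM, filterByExpr with a minimum count of 10), separately for the 9 mesoderm and 12 HPC libraries, for the 9 wild-type libraries and for the 21 mesoderm and HPC libraries. A gene was called at an adjusted p under 0.05 (Benjamini-Hochberg) and an absolute log2 fold change above 1. SE is the log2 fold change divided by the root of the F statistic. Alternatives were DESeq2 1.42.0, RLE factors, no filter, other library sizes, all 23 libraries in 1 fit, libraries of a clone summed, clone as a block and each library left out. Intervals for counts and floors (3 counts over the group) cover counting error only. In mesoderm each library of a group is a clone, so p-values measure the spread between clones, of which E7.1 and E7.2 may share a parent. HPC libraries ending in -2 repeat a clone and entered the fits as replicates. Spread within and between clones is therefore mixed in the HPC p-values and SDs. With libraries of a clone summed, 0 genes were called in HPCs of either genotype against wild type. In that fit 7 members were below 0 for P2-CTCF-KO and 2 for P1-CTCF-KO. No pair of libraries was alike within counting noise: the lowest chi-square per gene was 2.53. The tests were checked on simulated data.

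The members, the related and marker lists and the tests were chosen with earlier results of these data known. The text names all members, every related gene called in P2-CTCF-KO, and the 5 genes nearest to the median member profile among genes tested in both stages. Cbfa2t3, and the related genes called only in an alternative fit, were named after their values were seen. Start sites came from GENCODE vM1 (mm9). Python 3.11.15 was used for peaks and sequences, with bases read from mm9.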

Additional observations from a re-analysis of the deposited data

Results flagged for a closer look

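Of 26 groups of 4 or 5 libraries checked for a library far from the rest (Dixon's criterion, 0.829 for 4 and 0.71 for 5, which chance passes in about 1 group in 20), 3 had one. Nhs was at 12.1 CPM in the P2-CTCF-KO HPC library D2.1, with the nearest library at 3.46, a gap of 0.798 of the range. The summed primitive streak markers were at 3.56 CPM in the same library, with the nearest at 0.194, a gap of 0.946. The same sum was at 0.0859 CPM in the wild-type HPC library B9.3 and 0 in the other 3, which is a single count.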

How the results depend on the processing

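The number of genes called in P2-CTCF-KO mesoderm, 3, was 164 with DESeq2, 51 without a filter on low counts, 18 with all 23 libraries in 1 fit, and, in scalings chosen after the data were seen, 284 by total counts without TMM and 187 by counts outside ribosomal and multi-locus entries without TMM. It was 0 to 127 with single libraries left out. Related genes called, 0, were 3 with DESeq2, 6 and 5 in those scalings and 0 to 3 with a library left out. The median member change from undifferentiated cells to mesoderm was -0.67 and 0.77 in those scalings. HPC peaks at start sites were found for 5 members, beside 54.0% of genes, when only peaks wider than the median were counted, and CTCF peaks for 5, beside 52.7%, within 5 kb. The cause was not tested for any of these. The direction of single members turned with a library left out for P1-CTCF-KO mesoderm (Prkar2b -0.35 to 0.0091, Gab2 -1.44 to 0.12, Spns2 -1.11 to 1.26 and 0.08 without E7.2, Mbnl1 -0.80 to 0.35), P2-CTCF-KO HPCs (Kcnq5 -0.15 to 1.05, Grk5 -0.47 to 0.16, Nhs -1.44 to 0.85, Gab2 -0.47 to 0.32) and P1-CTCF-KO HPCs (Kcnq5 -0.19 to 0.41, Nhs -0.92 to 0.57, Jazf1 -0.16 to 0.34). By total counts and by counts outside ribosomal and multi-locus entries, Prkar2b turned to 0.12 and 0.086 in P1-CTCF-KO mesoderm. In P1-CTCF-KO HPCs Prkar2b turned to -0.12 and -0.052, Kcnq5 to -0.35 and -0.29, Mctp1 to -0.14 and -0.062, Jazf1 to -0.47 and -0.41, Fer to -0.075 and -0.018, Mbnl1 to -0.069 and -0.0017, and Grk5 to -0.057 by total counts. Members' medians against wild type in P2-CTCF-KO kept their sign throughout, from -2.504 to -2.02 in mesoderm and -0.45 to -0.02 in HPCs. Libraries of a clone at both stages deviated together little (r from -0.05 to 0.22 over 6849 genes, over 0.1 for 3 of 9 clones), so clones are not treated as pairs. With the clone as a replicate block the median from mesoderm to HPCs was 1.24 in wild type and 3.46 in P2-CTCF-KO, with 5 and 8 members called higher as without it. Depth limits Spns2 and Mctp1 in mesoderm, and low counts in C6.1.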
